A study of Mus musculus with 2 samples.

Results

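All-cell cluster 13 is a population of collagen-rich, fibroblast-like mesenchymal cells in the growing end of the mouse lower incisor. Its members are the cells that carry the number 13 in the authors' clustering of all cells. It held 654 of 23528 cells, of which 224 of 9708 came from the control library and 430 of 13820 from the Memo1 mutant library. None of the 654 cells (0) was part of the ameloblast lineage that the authors clustered separately.

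The series profiled single cells of the cervical loop region, the stem cell end of the continuously growing incisor, with epithelium and mesenchyme dissected together. The control group was 1 mouse whose alleles the labels do not give, and the mutant group was 1 mouse labelled Memo1;K14CRE. Both were at postnatal day 20, and about 10000 cells were loaded for each library. K14-driven Cre acts in epithelium of ectodermal origin, so the mesenchymal cells of cluster 13 are not the cells in which this driver is known to be active. The labels state neither which part of Memo1 is removed nor the sex or the strain of the mice. MEMO1 is a protein linked to ErbB receptor signalling and to cell motility, and the series title concerns its role in ameloblast maturation.

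Fibroblasts build connective tissue by secreting fibrillar collagens, which assemble into fibres with the help of small leucine-rich proteoglycans such as decorin and lumican. In the incisor, mesenchyme lies in the dental pulp, in the dental follicle around the tooth and in the periodontal ligament, and it exchanges Wnt, BMP, FGF and hedgehog signals with the epithelium. These compartments share many collagen genes and are told apart by signalling molecules and transcription factors.

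The cluster was sequenced deeply. Counts of unique molecular identifiers (UMIs), each standing for 1 captured transcript, summed to 5078591 in the control cells and 8124496 in the mutant cells of cluster 13. The median cell held 23367.5 and 18640 UMIs, and mitochondrial transcripts took a median of 5.90% and 6.24% of them. Cluster 7 had medians of 10613.5 and 10435 UMIs. Cluster 21 had medians of only 1185.5 and 1167.5 UMIs, with 17.3% and 18.4% mitochondrial counts. Of 139 cell barcodes that occur in both libraries, 12 belonged to cells of cluster 13, and no barcode (0) was in cluster 13 of both.

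The libraries also differed in sex-linked transcripts, which bears on every comparison between them. Xist, the RNA that silences an X chromosome in females, had 0 counts in the control and 11936 in the mutant cells of cluster 13. The Y-linked genes Ddx3y and Eif2s3y had 323 and 335 counts in the control and 0 in the mutant. The same pattern held in all other cells, where Xist reached 1405 CPM in the mutant and 0.658 CPM in the control. CPM is the share of a gene in all counts of those cells, scaled to counts per 1000000. With 1 mouse per genotype, sex, genotype and any other difference between the 2 mice or libraries cannot be told apart. No p-value can be given, the intervals below cover counting error only, and "higher" and "lower" describe these 2 libraries.

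Cluster 13 made up 2.31% of control cells (exact 95% Clopper-Pearson interval 2.02 to 2.63%) and 3.11% of mutant cells (2.83 to 3.41%). When cells below 1000 UMIs were left out, it made up 3.24% and 3.97%. Of the pooled fibroblast-like clusters 7, 13 and 21, it was 51.4% in the control (46.6 to 56.2%) and 29.7% in the mutant (27.3 to 32.1%). That denominator moved with cluster 7, which had 102 control and 770 mutant cells.

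The first marker of the label was borne out and the second less so. Col3a1 (chr1:45311538-45349706 in GRCm38, plus strand), which encodes the chain of type III collagen, had a control level of 5596 CPM and a mutant level of 7086 CPM. That was the highest level of the 26 clusters with at least 50 cells in each library, 17.3-fold and 8.84-fold over all other cells. Every cell of cluster 13 thinned to 5000 UMIs held at least 1 Col3a1 UMI (100% of 219 and of 427 cells). Dcn (chr10:97479609-97518143, plus strand), which encodes decorin, stood at 599 and 480 CPM and ranked 4 and 5 among clusters. Cluster 7 had 2309 and 1230 CPM of Dcn. Dcn UMIs were found in 70.3% of control and 58.3% of mutant cells of cluster 13 after thinning.

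Other general fibroblast genes placed the cluster among several mesenchymal clusters rather than above them. Lum, which encodes lumican, ranked 4 in both libraries with 1967 and 1703 CPM. Pdgfra, a receptor for platelet-derived growth factor, ranked 5 and 6 with 175 and 152 CPM. Fbln1, which encodes the matrix protein fibulin-1, ranked 7 and 9, and cluster 7 held 666 and 774 CPM against 242 and 154 CPM in cluster 13. Mfap5, a microfibril protein, was at 0.197 and 0.369 CPM. Of the adventitial fibroblast markers, Pi16 was at 0.197 and 0 CPM and Dpp4 at 0 and 0.123 CPM, whereas Gsn, an actin-severing protein gene, was at 191 and 173 CPM and Ly6a at 29.1 and 30.2 CPM. Both of the latter were higher in cluster 7. Of the markers given so far, Col3a1 was the one for which the cluster ranked first. Fibrillar collagens were not particular to it: the list summed to 21836 and 24405 CPM in cluster 13 and to 19409 and 35065 CPM in cluster 21. Lum UMIs were found in 93.6% and 92.3% of thinned cells of cluster 13, against 55.2% and 41.8% in cluster 7. Of its 10 leading genes, 3 were on the list of general fibroblast markers, 1 on that of dental follicle or periodontal ligament and 1 on that of dental pulp.

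The cluster was led by a set of secreted signalling molecules together with collagens. Leading genes are those with the highest fold over all other cells in the library where that fold was lower, after 10 CPM were added to both levels. Because clusters are made from the expression of these genes, these values describe the cluster and have no test. Bmp3 (chr5:98854415-98884396, plus strand), an unusual BMP ligand that dampens BMP signalling, led with 858 and 722 CPM, against 10.1 and 14.7 CPM in all other cells. Lrrc15, a membrane protein with leucine-rich repeats, followed with 383 and 293 CPM. Dkk2 (chr3:132085292-132180304, plus strand), a secreted modulator of Wnt signalling, came next with 716 and 555 CPM. After Col26a1 and the adhesion receptor gene Adgrg6 stood Col1a1 and Col1a2, the chains of type I collagen, at 8935 and 5716 CPM in the control and 8894 and 6553 CPM in the mutant.

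The remaining leading genes were of several kinds. Igf1, the insulin-like growth factor, was at 1493 and 1752 CPM, with cluster 13 first of 26 in both libraries. Hhip, which binds hedgehog ligands and limits their signal, was at 133 and 170 CPM. Nptx1, Lrrc17, Col5a2, Sbspon and the ephrin ligand gene Efna5 completed the 15 leading genes. None of the first 10 of them (0) had a counting interval between libraries wholly beyond 2-fold.

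Genes of tendon, ligament and bone marked the cluster in part. Tnmd, which encodes tenomodulin, and Ogn, which encodes osteoglycin, were each highest in cluster 13 in both libraries, at 51.0 and 35.7 CPM and at 1063 and 1038 CPM. Scx, the transcription factor of tendon progenitors, was at 0.591 and 0.246 CPM. Aspn, a marker of periodontal ligament, was at 2.95 and 5.54 CPM. Other members of the dental follicle or periodontal ligament list were present. Postn was found in 57.1% and 61.1% of thinned cells, against 59.8% and 48.1% in cluster 7, and Bmp3 was at 858 and 722 CPM in cluster 13. The 9 genes of that list summed to 1628 and 1447 CPM, against 1908 and 1073 CPM in cluster 7 and 381 and 446 CPM in all other cells. Runx2, the transcription factor that commits cells to bone, ranked 3 and 2 with 364 and 399 CPM. Genes of finished bone or dentin cells were uneven. Bglap was at 2.17 and 3.45 CPM, Dmp1 at 0 and 0.123 CPM and Dspp at 1.18 and 0.369 CPM, while Ibsp was at 70.5 and 148 CPM and Alpl at 122 and 168 CPM. Of the pulp list, Dkk2 was the one gene for which the cluster ranked first, while Fgf3, Lhx6 and Lhx8 lay between 0.123 and 2.17 CPM. Igfbp5, also on that list, was at 448 and 887 CPM. The list also holds Msx1, Msx2 and Smpd3, and 3 of its 8 genes reached the minimum level in cluster 13. The 8 genes of the list summed to 1515 and 1706 CPM, against 2551 and 2235 CPM in cluster 7 and 1011 and 900 CPM in all other cells.

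**Figure D1:**
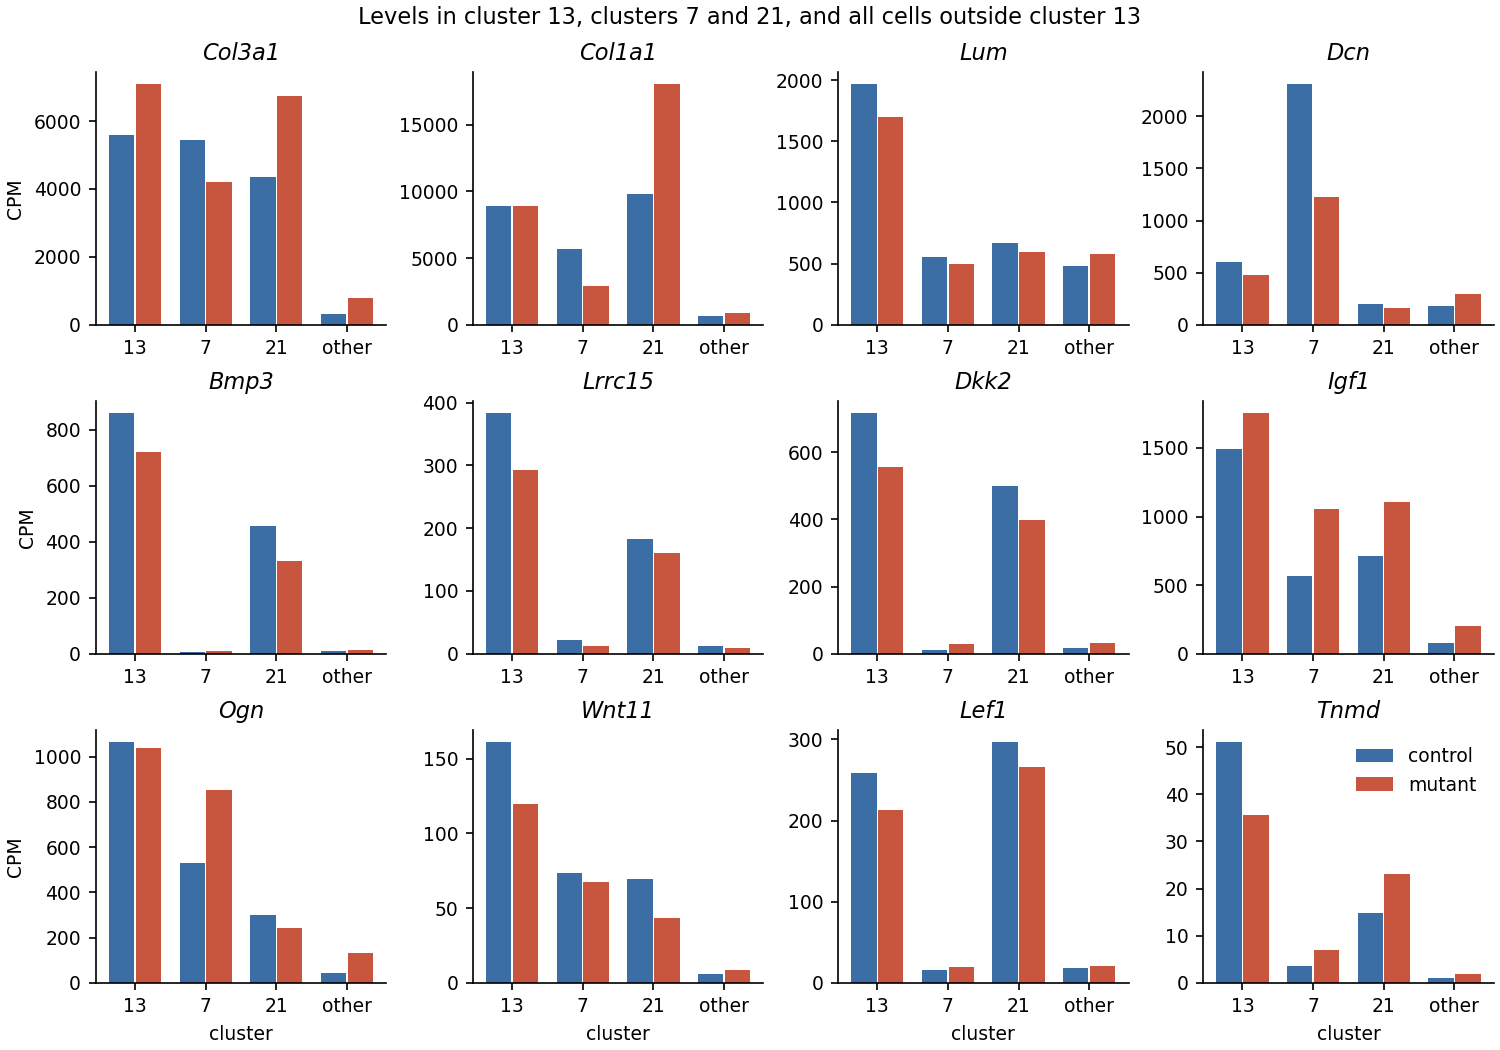
Bars give the level in CPM (linear axes from 0, different in each panel) of 12 genes in cluster 13, cluster 7, cluster 21 and all cells outside cluster 13, blue for control and red for mutant. Dcn was highest in cluster 7 (2309 and 1230 CPM), whereas Bmp3, Lrrc15 and Dkk2 were low in cluster 7 and shared by clusters 13 and 21.

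Against cluster 7, the other large fibroblast-like cluster, cluster 13 had higher levels of several Wnt genes and lower levels of many matricellular and transcription factor genes. Of 8682 genes measured, 197 (2.27%) were at least 2-fold higher in cluster 13 in both libraries, and 445 (5.13%) at least 2-fold lower. Bmp3 was at 5.40 and 10.5 CPM in cluster 7. Lef1, a transcription factor that acts in Wnt signalling, was at 258 and 214 CPM in cluster 13 and 15.3 and 19.97 CPM in cluster 7. Fabp5, a fatty acid binding protein, was at 1390 and 830 CPM against 72.9 and 39.1 CPM. Ddah1, Hsd11b2 and Rbfox1 were also among the 10 genes furthest on this side.

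Among groups of genes, 8 of 23 measured Wnt genes were higher and 2 lower in cluster 13 than in cluster 7. Sfrp2, a secreted Wnt modulator, went the other way, with 358 and 270 CPM in cluster 13 and 3770 and 11324 CPM in cluster 7. Of 16 measured BMP signalling genes, 2 were higher and 5 lower. Of 45 mesenchymal transcription factors, 1 was higher and 14 were lower. Matricellular and adhesive proteins had 8 of 18 lower and 0 higher, and small leucine-rich proteoglycans 5 of 8 lower and 1 higher.

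The genes furthest toward cluster 7 included Gpha2, Mmp13, Ptgis, Mgp, Ebf1, Thbs4, Sfrp2, Gpx3 and Apod. Gpha2, a glycoprotein hormone subunit, was at 30.3 and 16.4 CPM in cluster 13 and 2000 and 864 CPM in cluster 7. Mgp, an inhibitor of calcification, was at 6.69 and 43.8 CPM in cluster 13 against 1250 and 693 CPM. Ebf1, a transcription factor of mesenchymal and B cell lineages, was at 0.985 and 6.65 CPM against 133 and 261 CPM.

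Cluster 21 shared the leading genes of cluster 13 at a far lower depth per cell. Bmp3 stood there at 454 and 333 CPM, Dkk2 at 499 and 397 CPM, Lrrc15 at 183 and 161 CPM and Lef1 at 296 and 266 CPM. Of 8626 genes measured, 505 (5.85%) were at least 2-fold higher in cluster 13 than in cluster 21 in both libraries and 691 (8.01%) were lower. The higher genes included 7 of 17 genes of folding in the endoplasmic reticulum, 8 of 15 contractile and cytoskeletal genes and 3 of 4 smooth muscle markers. Among the 10 furthest were Hsd11b2, the peroxidase gene Gpx8, the protease gene Ctsl, Tagln, the receptor gene Kdelr2 and Ogn.

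The genes lower in cluster 13 than in cluster 21 held 11 of 13 mitochondrially encoded genes and the enamel matrix genes Enam, Amelx and Ambn. Amelx stood at 805 and 710 CPM in cluster 13 and 4198 and 3860 CPM in cluster 21. Top2a, a gene of dividing cells, was at 3.74 and 2.71 CPM against 153 and 131 CPM. The part of depth, mitochondrial content and free enamel transcripts in these differences was not tested.

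Enamel transcripts were also present at a similar low level in cells of another type. Amelx UMIs were found in 97.7% of control and 96.0% of mutant cells of cluster 13 after thinning to 5000 UMIs. In cluster 8, where 7 endothelial markers summed to 8163 and 7561 CPM, the shares were 98.7% and 97.0%. Median depths before thinning were 12518 and 10870 UMIs in cluster 8. The 7 genes of the ameloblast list summed to 985 and 825 CPM in cluster 13 and to 1213 and 971 CPM in cluster 8. Whether these counts in cluster 13 are background or expression by its cells was not tested.

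Cells of cluster 13 differed among themselves along axes present in both libraries. Genes and pairs were picked by their values in both libraries, so this presence is no replication. Each cell was thinned to 5000 UMIs, which kept 219 of 224 control cells and 427 of 430 mutant cells. Genes were ordered by the variance of their thinned counts over the mean, taking the lower of the values of the 2 libraries. Malat1, Sfrp2, Col1a1, Igfbp5, Col1a2, Col3a1, Sparc and Ibsp came first in this order. The order within 1 library differed: in the control, Acta2 (13.5) exceeded Col1a2 (12.96). Col1a1 varied with Col1a2, with Spearman's rho of 0.848 across 219 control cells and 0.812 across 427 mutant cells. Among Col1a1, Col1a2, Col3a1 and the collagen-binding protein gene Sparc, rho ran from 0.518 to 0.848 over both libraries.

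Some sets of genes tended to vary in opposite directions among cells. Cells that held genes of both sets were not counted. Bmp3, Dkk2, Lrrc15 and Nptx1 varied together, with rho from 0.240 to 0.553. Ncam1, a cell adhesion molecule, Hhip and Sostdc1, a secreted BMP and Wnt antagonist, also varied together, with rho from 0.407 to 0.546. Between the sets rho was negative for all 12 pairs in both libraries, from -0.418 to -0.0865. Both sets were chosen after these values had been seen, and cells of 1 library share 1 mouse and 1 preparation, so the coefficients describe and have no p. Bmp3 was found in 78.1% of control and 74.9% of mutant cells after thinning, and Hhip in 30.6% and 32.3%. In cluster 8 the shares of Hhip were 0.422% and 0.186%.

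**Figure D2:**
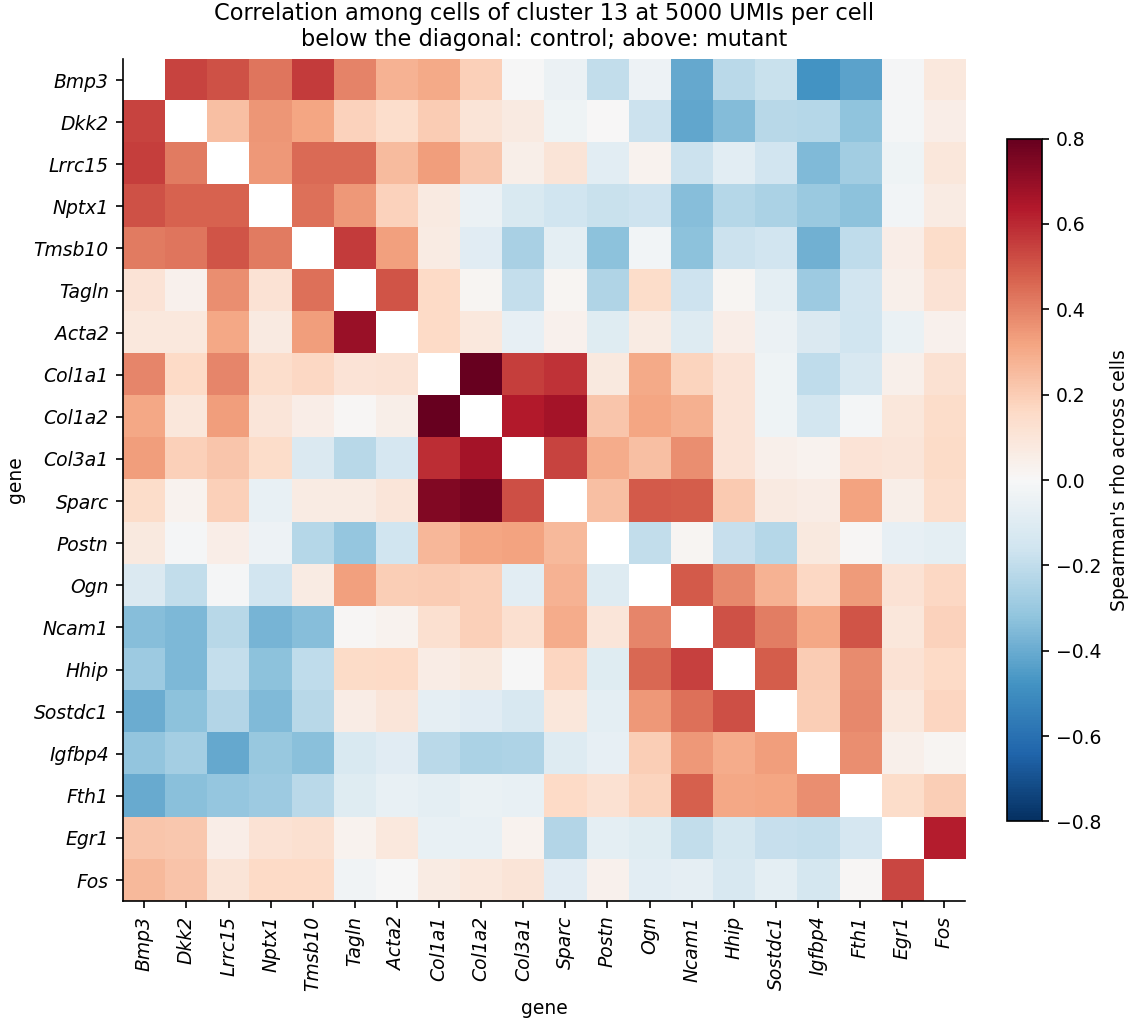
Squares give Spearman's rho between thinned counts of 2 genes across cells of cluster 13, with the 219 control cells below the diagonal and the 427 mutant cells above it (red positive, blue negative, diagonal left blank). The blocks of Bmp3 with Dkk2 (0.544 and 0.542), Col1a1 with Col1a2 (0.848 and 0.812) and Ncam1 with Hhip (0.546 and 0.510) appear on both sides.

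Between libraries, immediate early genes of cluster 13 were higher and smooth muscle genes lower in the mutant. Of 8264 genes measured (at least 20 counts in all and 10 CPM on average), 41 (0.496%) were at least 2-fold higher in the mutant with a counting interval that excludes 1, and 35 (0.424%) were at least 2-fold lower. With a 1.5-fold limit, used below for groups of genes, the counts were 178 (2.15%) and 152 (1.84%). The median log2 ratio of all measured genes was 0.02. Of the 41 genes, 10 were also at least 2-fold higher in all other cells together, and of the 35 genes, 13 were also lower there. Of both groups together, 14 were unnamed gene models or Xist, Tsix, Y-linked, mitochondrial, ribosomal or haemoglobin genes. Without these, 37 higher and 25 lower genes remained.

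Memo1 itself (chr17:74199036-74295521, minus strand) had 89 control and 161 mutant counts in cluster 13. Its levels were 17.5 and 19.8 CPM, a ratio of 1.13 (0.868 to 1.48). In all other cells the ratio was 0.918. As the removed part of the gene is not given and reads come from the 3' ends of transcripts, this value checks nothing about the deletion.

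**Figure D3:**
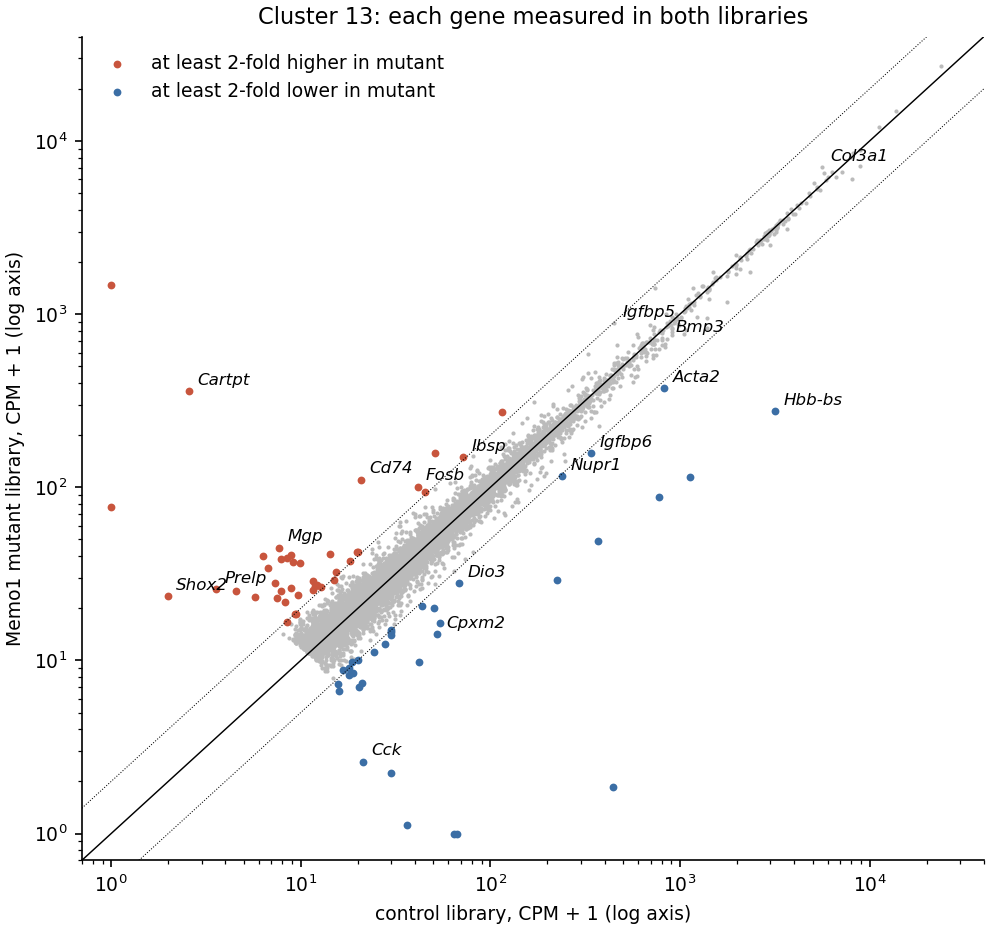
Each point is a gene measured in cluster 13, with CPM + 1 in the control on the x axis and in the mutant on the y axis (log axes); dotted lines mark 2-fold. The 41 red and 35 blue points are the genes at least 2-fold higher and lower, with Cartpt (1.58 and 359 CPM) far above the line and Col3a1 (5596 and 7086 CPM) near it.

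Of 7 measured fibrillar collagens, 0 were higher and 0 lower by the 1.5-fold limit. Col3a1 had a ratio of 1.27 (1.25 to 1.28) and Col1a1 of 0.995 (0.984 to 1.01). Among 6 measured small leucine-rich proteoglycans 1 was higher, Prelp, with 2.56 and 24.9 CPM, of which single cells held 46.2% (control) and 28.2% (mutant). Prelp lay below 10 CPM in the control and met the minimum only through the mutant. Lox, the collagen crosslinking enzyme gene, was the 1 of 21 genes of collagen folding, processing and crosslinking that was lower, and 0 were higher.

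None of 23 measured Wnt genes passed the limit (0 higher, 0 lower), and their median log2 ratio was -0.24, below the 0.02 of all measured genes. With 2.15% and 1.84% of all genes past the limit, counts of 0 in lists of this size are no result about the lists. Dkk2 was at 716 and 555 CPM, a ratio of 0.775 (0.742 to 0.810), and Wnt11, a Wnt ligand for which cluster 13 ranked first, at 161 and 119 CPM, a ratio of 0.742 (0.676 to 0.816). Bmp3 had a ratio of 0.841, also within 2-fold. No hedgehog response gene (0 of 6), TGF-beta gene (0 of 12) or endoplasmic reticulum folding gene (0 of 17) passed it. Of the genes listed for MEMO1, ErbB and motility, 0 of 13 did.

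Immediate early genes, which cells switch on within minutes of stimulation or stress, were higher in the mutant cells of cluster 13. Of 20 measured, 11 were at least 1.5-fold higher and 0 lower, with a median log2 ratio of 0.61. Fos (chr12:85473890-85477273, plus strand), a subunit of the AP-1 transcription factor, went from 327 to 590 CPM, a ratio of 1.80 (1.70 to 1.91). Fosb (chr7:19302696-19310051, minus strand), a related subunit, went from 40.4 to 99.7 CPM, a ratio of 2.47 (2.12 to 2.89). Egr1, a zinc finger transcription factor, went from 170 to 309 CPM, and Dusp1, a phosphatase that switches off MAP kinases, from 44.1 to 92.3 CPM. Klf4 had the largest ratio of the group, 3.03 (2.32 to 4.01), at 13.2 and 40.0 CPM. Atf3, Nr4a1, Nr4a2, Btg2, Zfp36 and Socs3 were the others that passed, and Jun and Jund, at 1.23 and 0.989, did not.

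The 11 genes that passed in cluster 13 all had ratios below 1 in cluster 7, and for 11 of them the counting interval there excluded 1. The difference between the clusters was not tested. Summed over the whole list, the level in cluster 13 was 2666 and 3629 CPM, a ratio of 1.36 (1.33 to 1.39). It was 7960 and 3971 CPM in cluster 7, a ratio of 0.499 (0.487 to 0.511), 2119 and 3387 CPM in cluster 21, a ratio of 1.60 (1.43 to 1.79), and 13000 and 13010 CPM in cluster 8, a ratio of 1.00. Thus the levels in cluster 13 were below those of cluster 8 in both libraries. Egr1 and Fos varied together among cells of cluster 13, with rho of 0.536 and 0.630.

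Smooth muscle markers were lower in the mutant cells of cluster 13. Of 4 measured smooth muscle markers, 3 were at least 1.5-fold lower and 0 higher, with a median log2 ratio of -0.95. Acta2 (chr19:34241090-34255590, minus strand), smooth muscle actin, was at 827 and 372 CPM, 2.23-fold lower in the mutant (2.12 to 2.33). Cnn1, which encodes calponin, was at 49.6 and 19.1 CPM, 2.60-fold lower, and Myh11, smooth muscle myosin, at 159 and 94.8 CPM, 1.68-fold lower. Tagln, an actin-binding protein, was at 1394 and 949 CPM, 1.47-fold lower, and did not pass the limit. In the wider list of contractile and cytoskeletal genes, 2 of 15 were lower, Acta2 and Cnn1 again, and 0 higher, with a median log2 ratio of -0.26. Acta2 UMIs were found in 48.4% of control and 38.2% of mutant cells after thinning, and no more than 6.72% of its counts came from 1 cell of either library.

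Acta2 and Tagln varied together among cells, with rho of 0.691 in the control and 0.505 in the mutant. Pericyte markers, which accompany smooth muscle genes in vessel walls, did not fall with them: of 4 measured, 2 were higher and 0 lower. The higher ones were Abcc9 (32.5 and 61.9 CPM) and Rgs5 (5.71 and 33.0 CPM, with 53.7% of the mutant counts in 1 cell). Rgs5 lay below 10 CPM in the control and met the minimum only through the mutant, so its place in this count is no support. In cluster 7 Acta2 was at 74.7 and 770 CPM, a ratio of 10.3. In all other cells its ratio was 2.83. In cluster 21 it was 0.691, and the sum of the smooth muscle markers there had a ratio of 0.691 (0.539 to 0.889).

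**Figure D4:**
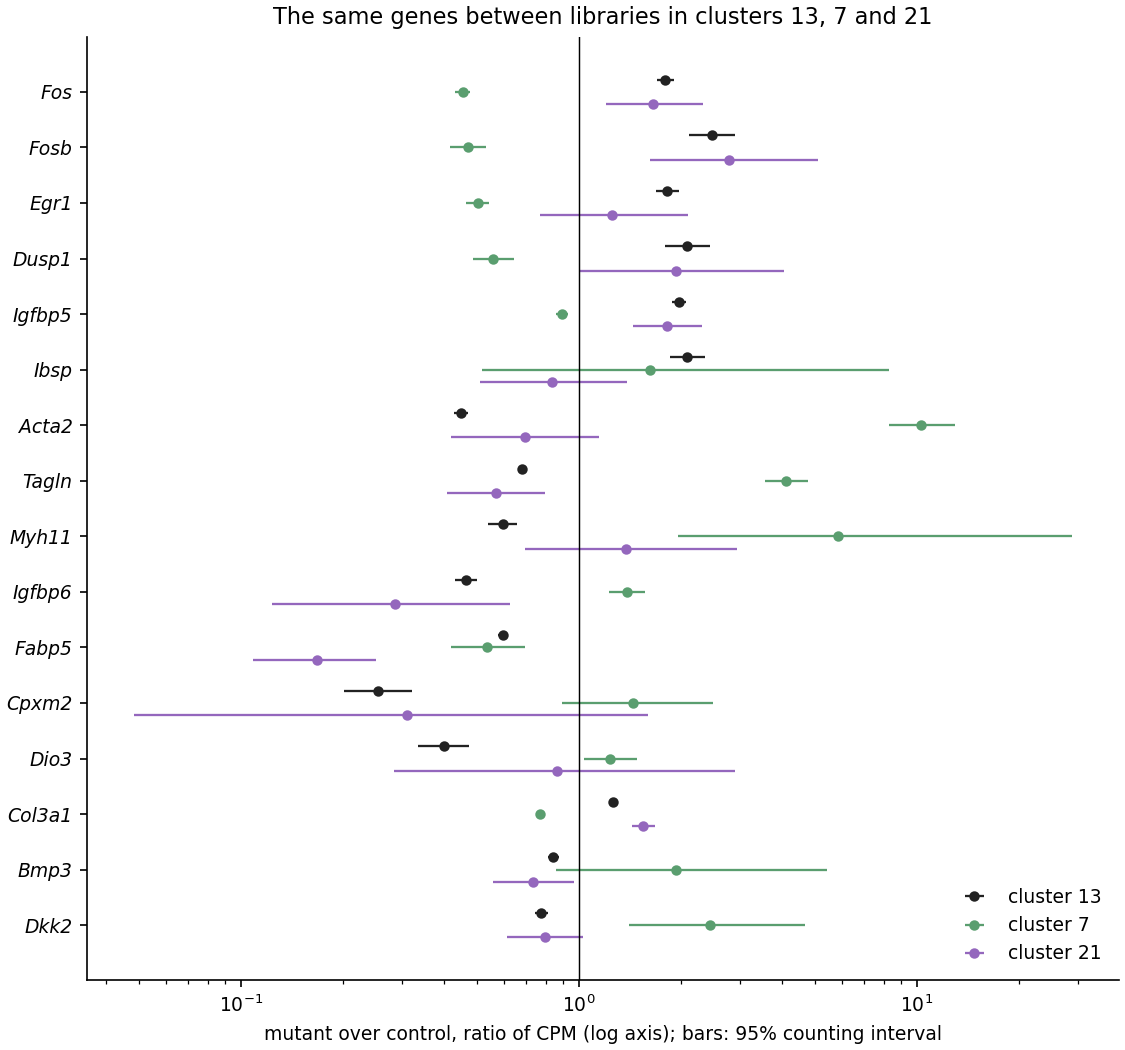
Points give the ratio of mutant over control CPM (log axis) and bars the 95% counting interval in cluster 13 (black), cluster 7 (green) and cluster 21 (purple) for 16 genes. Fos, Fosb, Egr1 and Dusp1 lie above 1 in cluster 13 and below 1 in cluster 7, and Acta2 lies at 0.449 in cluster 13 and at 10.3 in cluster 7.

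The insulin-like growth factor system changed in its binding proteins. Igfbp5 (chr1:72857932-72874884, minus strand), which binds insulin-like growth factors in the matrix, was at 448 and 887 CPM, a ratio of 1.98 (1.89 to 2.08), and was found in 35.2% and 49.7% of thinned cells. Igfbp6 (chr15:102144362-102149511, plus strand), a binding protein that prefers IGF2, was at 338 and 157 CPM, 2.16-fold lower in the mutant (2.00 to 2.32), and was found in 65.3% and 39.8% of thinned cells. Of the 9 measured genes of the system these were the 2 past the 1.5-fold limit. Igfbp6 went the other way in all other cells, with a ratio of 2.56, and Igfbp5 was at 0.802 there. In cluster 21 the ratios were 1.82 for Igfbp5 and 0.285 for Igfbp6.

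Some bone and dentin mineralisation genes were higher in the mutant at low levels. Of 18 in the list 5 could be measured, and 3 of them were higher and 0 lower. Among them, Enpp1 and Mgp lay below 10 CPM in the control and met the minimum only through the mutant. The count is therefore no result about the list. Ibsp (chr5:104299171-104311469, plus strand), bone sialoprotein, was at 70.5 and 148 CPM, a ratio of 2.10 (1.86 to 2.37). One cell held 21.2% of the control counts of Ibsp, and without the highest cell of each library the ratio was 2.54. Enpp1, which makes the mineralisation inhibitor pyrophosphate, was at 6.30 and 27.1 CPM, a ratio of 4.30 (2.96 to 6.44), and Mgp at 6.69 and 43.8 CPM, a ratio of 6.55 (4.597 to 9.60). Alpl, the alkaline phosphatase gene, was at 122 and 168 CPM and did not pass.

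Some transcription factor and guidance genes were also higher. Of 38 measured mesenchymal transcription factors, 4 were higher (Sox9, Sox11, Snai2 and Klf4) and 0 lower. Sox11 was at 24.8 and 44.4 CPM. Of 18 axon guidance and neurotrophin genes, 4 were higher (Sema3a, Nrp1, Nrp2 and Epha3) and 0 lower. Epha3, an ephrin receptor, was at 154 and 249 CPM, and Nrp2, a semaphorin co-receptor, at 130 and 205 CPM.

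Cartpt (chr13:99898489-99901091, minus strand), which encodes the precursor of a neuropeptide, had the largest ratio among the named genes. It had 8 counts in 3 of 224 control cells, of which 1 cell held 75.0%, and 2917 counts in 63 of 430 mutant cells. That was 1.58 and 359 CPM, a ratio of 228 (116 to 528). The mutant counts were spread over many cells: 34 cells held at least 10 counts, 8 held at least 100, and the highest held 344, or 11.8% of them. The shares of cells with a UMI were 1.34% (0.277 to 3.86%) and 14.7% (11.4 to 18.4%). After thinning they were 0 of 219 control cells, with an exact upper bound of 1.67%, and 11.5% of mutant cells (8.61 to 14.9%).

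Cartpt was not restricted to cluster 13. In cluster 7 it had 0 control counts and 620 mutant counts in 46 of 770 cells, at least 27.3-fold higher against a floor of 3 counts in the control. In cluster 21 it had 0 and 72 counts, and in all other cells the ratio was 64.9. In cluster 8, taken as a type that lacks the gene, 0.742% of mutant cells had a UMI after thinning, below the 11.5% of cluster 13.

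**Figure D5:**
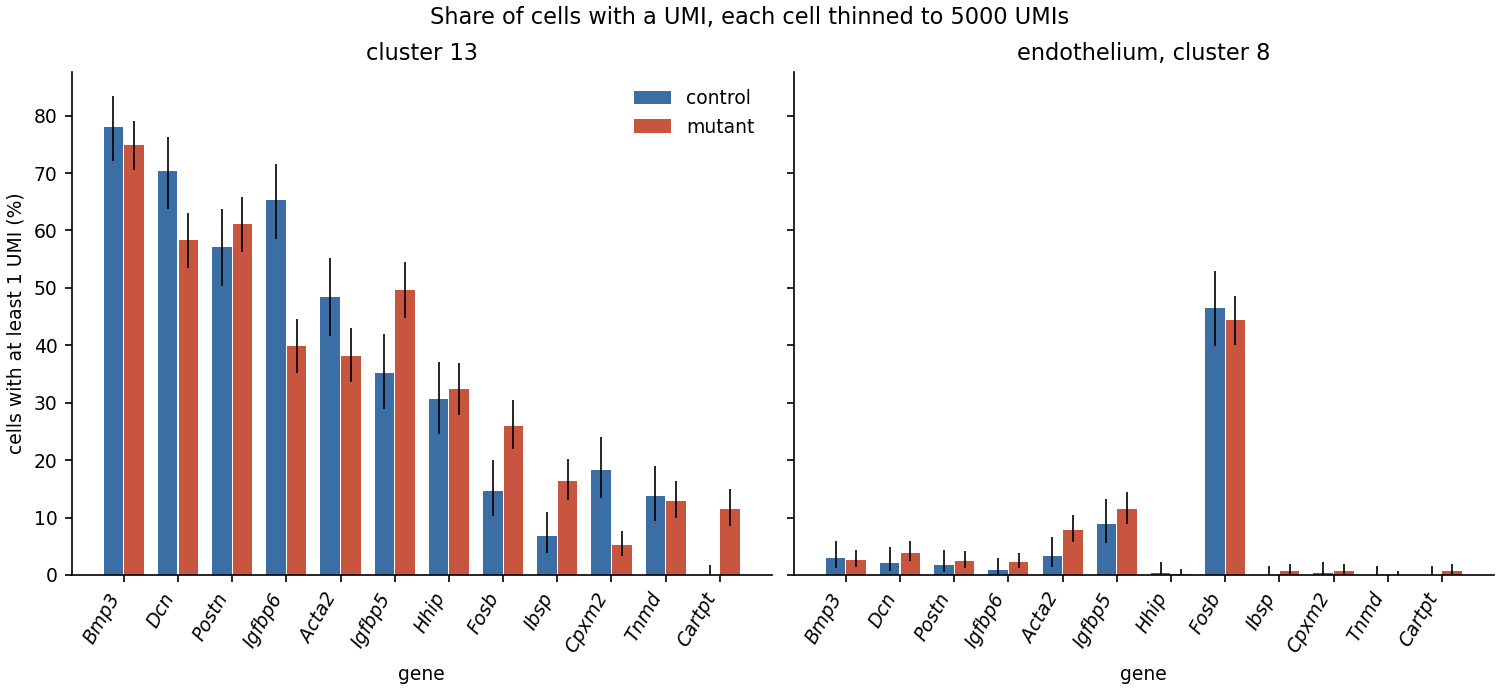
Bars give the percent of cells with at least 1 UMI of a gene after each cell was thinned to 5000 UMIs, with exact 95% intervals, in cluster 13 (left) and in the endothelial cluster 8 (right), blue for control and red for mutant. Cartpt was at 0% and 11.5% in cluster 13, and Igfbp6 at 65.3% and 39.8%, while Fosb was the one of the 12 genes with a high share in cluster 8 (46.4% and 44.3%).

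Further genes named by rank filled out both directions. Higher in the mutant were Tmtc2, the NF-kappaB inhibitor gene Nfkbia (80.1 and 150 CPM), Abcc9, Rnaset2b and Nrtn, a neurotrophic ligand gene (31.9 and 58.8 CPM), with ratios from 1.83 to 1.93. Erdr1 and PISD were higher by 3.13 and 2.36 in cluster 13 and by 2.77 and 1.97 in all other cells, and Rnaset2b had a ratio of 1.76 there. Lower were Cpxm2, a carboxypeptidase-like gene (51.6 and 13.2 CPM, 3.92-fold), and Dio3, which inactivates thyroid hormone (67.5 and 27.0 CPM, 2.51-fold). Nupr1, a stress-response gene, was 2.08-fold lower, Fabp5 1.68-fold lower, Phgdh, which starts serine synthesis, 1.72-fold lower (with a ratio of 0.528 in all other cells), and the matrix genes Mfap4 and Col8a1 1.65-fold and 1.74-fold lower. Fam110a and Sbspon were lower as well.

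Cpxm2, Dio3, Nupr1, Mfap4, Col8a1 and Sbspon had ratios above 1 in all other cells, from 1.15 for Dio3 to 3.09 for Col8a1. Cwc22, a splicing factor gene, was 3.46-fold lower in cluster 13, with a ratio of 0.289 there and 0.241 in all other cells. The gene models Gm10709, Gm8797 and Gm5900 and the X-linked genes Kdm6a and Ddx3x, chosen after their values were seen, also differed across the whole libraries. Gm10709 was at 441 and 0.862 CPM in cluster 13 and 385 and 1.60 CPM elsewhere, and Kdm6a had ratios of 2.30 and 2.00.

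Markers of other cell types moved between the libraries as well. All 5 measured macrophage markers (C1qa, C1qb, Lyz2, Fcer1g and Tyrobp) were higher in the mutant, and the 8 markers of the list summed to 82.9 and 178 CPM in cluster 13, a ratio of 2.15. In all other cells they summed to 3822 and 4314 CPM. Cd74, a chaperone of antigen-presenting molecules, was at 19.9 and 110 CPM. One mutant cell held 55.7% of its counts, along with 51.1% of those of H2-Aa and 56.8% of those of Il1b, and without the highest cell of each library the ratio of Cd74 fell from 5.52 to 2.63.

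Endothelial markers summed to 21.7 and 66.0 CPM in cluster 13. Erythroid markers summed to 5464 and 523 CPM, a ratio of 0.0958, and 1 control cell held 37.6% of the Hbb-bs counts of its library. The ameloblast list summed to 985 and 825 CPM, and the dental epithelium list to 81.5 and 41.5 CPM. Of the lymphocyte list, Cd3e, Cd3d and Ms4a1 were at 0, as were Sox10 and Foxd3 of the Schwann cell list. The part of these transcripts in the differences above was not tested.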

How the data were processed

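The deposited values were whole-number UMI counts per gene and cell (19626 genes), which the authors made by droplet sequencing, with the cluster number of each cell. Per the submitters' processing notes, the tools were Cell Ranger (version not given) and Seurat 3 and the build mm10. How the clusters were computed and whether doublets were removed is not given in the sources used here, and no doublet caller was run. The 4 columns of plotting coordinates were not used.

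For each library, the counts of a cluster's cells were added up and divided by the total of all genes (CPM), with Python 3.11.15 and scipy 1.17.1. Ratios have exact 95% conditional intervals of 2 Poisson counts, and shares exact Clopper-Pearson intervals. Intervals cover counting error only. Genes needed at least 20 counts and 10 CPM on average. Members, lists and rules were chosen with earlier results of these data known. Named between libraries were the first 15 genes on each side that had 50 counts and, in the library with more, 50 CPM, ordered by the nearer interval bound; between clusters the first 10 on each side, and 15 leading the cluster; and genes of 55 lists. Xist, Tsix, Y-linked, mitochondrial, ribosomal, haemoglobin and unnamed genes were left out of these orders, and some genes that the rules name are not reported here. Positions are from GENCODE M21 (GRCm38, the assembly of mm10), for 78 of 80 symbols. Scaling by edgeR 4.0.16 (TMM) and DESeq2 1.42.0 (size factors), other filters, thinned cells and left-out cells were tried as alternatives. The calculation of intervals was tested on simulated data.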

Additional observations from a re-analysis of the deposited data

Results flagged for a closer look

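Among the reported genes named by rank between libraries, 8 differed by at least 1.5-fold in opposite directions in clusters 13 and 7. Each counting interval excluded a ratio of 1. Genes with a smaller difference in either cluster, such as Igfbp6 (0.464 and 1.39), and genes not named by rank are not counted here. The difference between the clusters was not tested, as each group has 1 library. The immediate early genes were higher in cluster 13 and lower in cluster 7: Fosb had ratios of 2.47 and 0.470, Dusp1 of 2.09 and 0.559, Fos of 1.80 and 0.454, and Egr1 of 1.82 and 0.502.

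The other 4 were lower in cluster 13 and higher in cluster 7. Acta2 had ratios of 0.449 and 10.3, Col8a1 of 0.576 and 1.66, Myh11 of 0.595 and 5.86 (1.96 to 28.8), and Sbspon of 0.609 and 8.46 (1.46 to 339). The control cells of cluster 7 number 102, and the intervals of Myh11 and Sbspon there are wide.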

How the results depend on the processing

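The counts of genes at least 2-fold higher (41) and lower (35) in the mutant depended on the minimum level. With at least 5 counts and no CPM minimum they were 294 and 236, with at least 50 counts and 50 CPM 8 and 9, and with each cell thinned to 1000 UMIs 94 and 65. Other scalings, stricter cell filters and left-out cells, including 3 alternatives chosen after seeing the data (shared barcodes, haemoglobin and enamel transcripts, haemoglobin-rich cells), kept both counts within 1.5 times. The share of cluster 13 was 3.24% and 3.97% among cells with at least 1000 UMIs, against 2.31% and 3.11% of all cells. Of clusters 7, 13 and 21 it was 51.4% and 29.7%, so the order of the libraries turned. That denominator held 102 control and 770 mutant cells of cluster 7. No gene named by rank between libraries turned its direction (0 of 419 values), and 32 values moved. Genes named only from lists, as leading genes or between clusters were not checked individually in this way. Of 675 values of list medians 79 moved and 2 turned: large proteoglycans at -0.15 in place of 0.12 with at least 50 counts and 50 CPM, and lipid genes at 0.70 in place of -0.14 after thinning to 1000 UMIs. The cause was not tested. Genes higher in cluster 13 than in cluster 7 numbered 191 to 250, and than in cluster 21 505 to 695, where the stricter filter kept 18 and 24 cells of cluster 21. No paired analysis was possible because each group has 1 library. With 1 mouse per group, the data give no variation between mice.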

Other observations

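Some genes below the level set for naming differed widely between the libraries in cluster 13, and they are given as values, chosen after they were seen. Shox2, a homeobox transcription factor, had 5 counts in 1 control cell and 182 counts in 66 mutant cells (0.985 and 22.4 CPM). Slc1a3, a glutamate transporter, was at 5.32 and 39.3 CPM, with a ratio of 7.39 (4.98 to 11.4) and no more than 18.5% of its counts in 1 cell. Cck, a peptide hormone, was at 20.3 and 1.60 CPM, 12.7-fold lower in the mutant (7.09 to 24.6). In all other cells the ratios went the same way, at 1.84 for Shox2, 3.85 for Slc1a3 and 0.537 for Cck. Fam171b was at 41.2 and 8.74 CPM, 4.71-fold lower (3.58 to 6.25), while in all other cells its ratio was 1.45.

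Cartpt counts were found in mutant cells of further clusters and in none of the control cells of those clusters (0 in clusters 5, 6, 7, 8 and 21). In cluster 5 they were in 61 of 1352 mutant cells and in cluster 6 in 50 of 847. Those were 4.51% and 5.90% of cells, against 14.7% in cluster 13 before thinning, at median depths of 7417, 6829 and 18640 UMIs.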
